A study of Mus musculus with 18 samples.

Results

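The genes described here are 32 molecular chaperones and folding factors, taken by gene name from the 38924 genes listed in the tables of 18 RNA sequencing libraries of mouse spinal cord. They were kept apart as 19 genes of the endoplasmic reticulum (ER), from Hspa5 to Herpud1, and 13 genes of the cytosol and mitochondria, from Hspa1a to Hspa4l. All 32 names were found, and all 32 genes passed the filter on low counts in each comparison.

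Chaperones bind proteins that are not yet folded or that have come unfolded. In the ER, Hspa5 and its partners fold proteins that enter the secretory path, and when unfolded protein builds up there the sensors Atf6, Ern1 and Eif2ak3 start the unfolded protein response, which raises the transcription of many ER chaperones. In the cytosol, the transcription factor Hsf1 raises the heat shock genes. Motor neurons are known for a high level of small heat shock proteins, and mutations in HSPB1 and HSPB8 cause inherited motor neuropathy in humans, as mutations in GARS do.

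The libraries hold mRNA associated with ribosomes. They were made by RiboTag, in which cells that express Cre add a haemagglutinin tag to Rpl22, a protein of the large ribosomal subunit. An antibody to the tag then brings down the ribosomes of those cells and the mRNA on them. All mice were 8 weeks old, of the mixed background B6;CASTxB6.129 and Rpl+/-, and each library came from a mouse with its own name. Cre P278KY mice (n = 3) were Chat+/- and P278KY+/-, so they carried Chat-Cre and 1 copy of the dominant P278KY change in Gars, which encodes the enzyme that charges tRNA with glycine. Cre wild-type mice (n = 4) were Chat+/- and P278KY+/+. NoCre P278KY mice (n = 6) were Chat+/+ and P278KY+/-, and NoCre wild-type mice (n = 5) were Chat+/+ and P278KY+/+. The NoCre libraries are the study's negative controls and hold RNA that came down without a tagged ribosome. Chat-Cre tags all cholinergic cells of the cord, of which motor neurons are only one kind. In such pull-downs, fewer tagged cells and less RNA per cell cannot be told apart.

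Total counts ran from 14659535 to 24028692 in the Cre libraries and from 8177837 to 14450182 in the NoCre libraries. Mitochondrial ribosomal RNA took 1.36% to 4.88% of the counts with Cre and 24.2% to 53.8% without. The summed level of 10 cholinergic markers was 1734 to 3499 CPM (counts per 1000000, scaled by the TMM method) with Cre. Without Cre it was 96.4 to 113.2 CPM in P278KY and 142.8 to 164.1 CPM in wild-type mice. The targeted gene Gars was higher in Cre P278KY than in Cre wild-type (log2 fold change 1.01, edgeR adjusted p = 0.0219). By their index numbers the libraries fall into a first and a second sequencing pool. All 3 Cre P278KY libraries and Cre wild-type replicates 1 and 2 belong to the first pool, and Cre wild-type replicates 3 and 4 to the second. By Xist and Y-linked transcripts, the first pool held 1 male and 2 female Cre P278KY mice and 2 male Cre wild-type mice, and both Cre wild-type mice of the second pool were female. All NoCre mice of the first pool were male and all of the second female. Pool and sex thus cannot be told apart in the NoCre mice, nor among the Cre wild-type mice.

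The promoters of some of these genes carry elements through which the stress responses are known to act. They are shown because 8 of the 17 ER members searched and 0 of the 10 others searched hold the ER element. In the RefSeq promoter table (GRCm38.p6), 250 bases before each start were searched on both strands for 3 motifs, for the 17 ER and 10 cytosolic and mitochondrial members it holds. It lacks Manf, Hyou1, Hsp90aa1, Hspa8 and Cryab. The ER stress response element, searched as CCAAT, any 9 bases and CCACG, was found in 8 of the 17 ER members and in 0 of the 10 others, against 0.113% of all 32851 promoters. Members were counted as genes with a match before any of their starts, while the share counts single promoters, so the units differ. One match of each gene is given below on the gene's strand. Capitals mark the fixed letters of the motif, which reads CGTGG to ATTGG where the match is on the opposite strand. Hsp90b1 has 2 matches, of which the one nearer the start is shown. The stretches are chr2:34772020-34772048 (+) for Hspa5, chr10:86705528-86705556 (-) for Hsp90b1, chr12:17266486-17266514 (+) for Pdia6 and chr14:118937822-118937850 (+) for Dnajc3. Those of the others are chr8:84847070-84847098 (-) for Calr, chr11:50325795-50325823 (-) for Canx, chr15:88819515-88819543 (+) for Creld2 and chr19:6046527-6046555 (+) for Syvn1.
Hspa5: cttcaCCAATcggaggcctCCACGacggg
Hsp90b1: gagtgCGTGGtgaggcacgATTGGtgagt
Pdia6: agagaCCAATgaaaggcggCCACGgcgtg
Dnajc3: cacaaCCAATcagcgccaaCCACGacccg
Calr: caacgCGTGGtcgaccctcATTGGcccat
Canx: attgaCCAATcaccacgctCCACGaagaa
Creld2: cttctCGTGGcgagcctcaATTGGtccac
Syvn1: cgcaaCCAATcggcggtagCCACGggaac

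The other 2 motifs each matched few of these genes, and they are shown because they lie before members with large values in the comparison of genotypes. The heat shock element, searched as GAA, TTC and GAA with any 2 bases between neighbours, was found in 0.466% of all promoters, and among the members only before Hspd1 and Hspe1. These 2 genes stand head to head on chromosome 1, and their matches lie at chr1:55088053-55088082, where they overlap each other. In GENCODE M21 (GRCm38) that stretch lies before the start of Hspe1 and inside an exon at the 5′ end of Hspd1. The stretch shown for Hspa5 likewise lies inside an annotated exon of Hspa5. The shorter element TGATGNAA, bound by the stress factors Atf4 and Ddit3 together, was found in 3.45% of all promoters and among the members only before Herpud1, at chr8:94386306-94386335 on the opposite strand. A match of letters is a description and not a binding site, and an element with other letters was not found by this search.
Hspe1: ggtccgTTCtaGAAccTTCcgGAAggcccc
Herpud1: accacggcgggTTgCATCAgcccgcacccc

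In wild-type mice the most abundant members on the length-corrected TPM scale (transcripts per 1000000, as deposited) were cytosolic. The median TPM over the 4 Cre wild-type libraries was 2951 for Hspa8, the constitutive Hsp70, and 1648 for Hsp90aa1, the stress-induced Hsp90. Next came Hspb1, a small heat shock protein (336.2), and Hspd1, the mitochondrial Hsp60 (274.0). The first ER member was Canx, a membrane lectin that holds glycoproteins while they fold (214.2), in place 6 of 32. Calr, its soluble relative, stood at 179.5, Hsp90b1, the Hsp90 of the ER, at 178.2 and Hspa5, the Hsp70 of the ER, at 106.9. The least abundant were the inducible Hsp70 genes Hspa1a (4.68) and Hspa1b (1.48) and Edem1 (2.90), which takes misfolded glycoproteins to degradation.

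**Figure D1:**
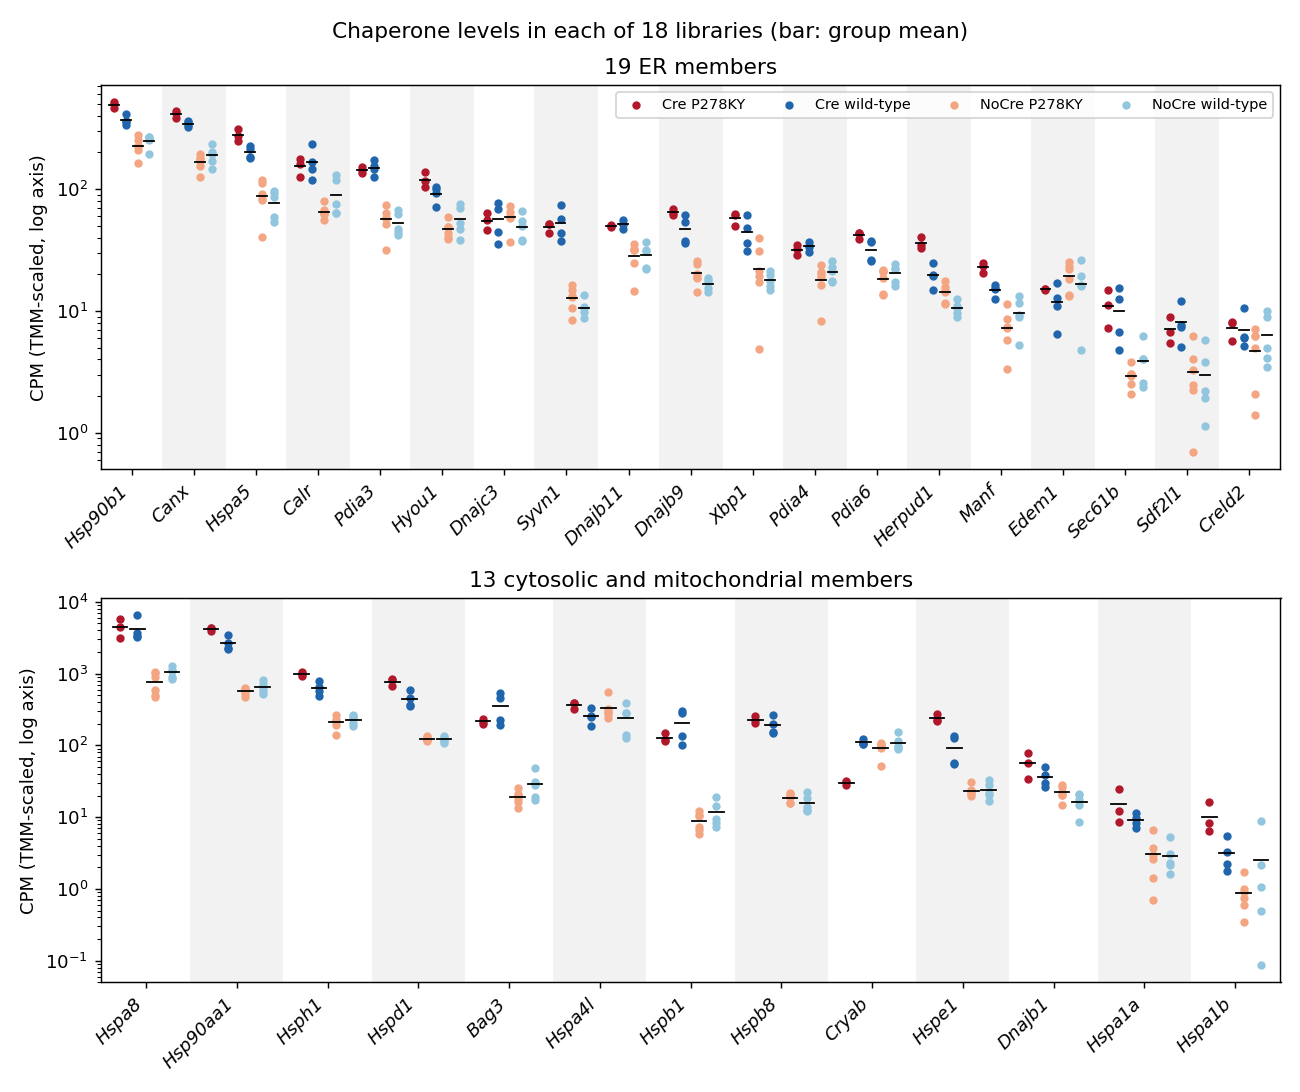
Level of each of the 32 members in each of the 18 libraries, as TMM-scaled CPM on a log axis, with the ER members above and the cytosolic and mitochondrial members below. Points are libraries coloured by group and bars are group means. Most members lie higher in the Cre libraries than in the NoCre libraries, while Cryab is lowest in the 3 Cre P278KY libraries, at 28.3 to 31.8 CPM.

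The comparison of Cre with NoCre libraries in wild-type mice asked which of these mRNAs the tagged ribosomes brought down above the background. Of all 17133 genes tested, 28.5% were higher in Cre and 31.2% lower at an adjusted p under 0.05 (edgeR's quasi-likelihood test, Benjamini-Hochberg adjustment over all genes). Of the 13 cytosolic and mitochondrial members 10 were higher and 0 lower, with a median log2 fold change of 1.86 against -0.12 for all genes. Of the 19 ER members 15 were higher and 0 lower, with a median of 0.86. The summed CPM of the cytosolic members was 7467 to 11840 in Cre wild-type and 2101 to 2784 in NoCre wild-type libraries. That of the ER members was 1576 to 1914 and 730.4 to 1027.

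The small heat shock proteins and their partner gave the largest enrichment. Hspb1 stood at 279.7, 305.9, 101.0 and 133.9 CPM in Cre wild-type replicates 1 to 4 and at 7.33 to 19.1 CPM in the 5 NoCre wild-type libraries (log2 fold change 4.15 ± 0.34 SE). Bag3, which links Hsp70 to small heat shock proteins in selective autophagy, was at 452.1, 532.8, 195.4 and 223.2 CPM against 17.3 to 48.0 CPM (3.62 ± 0.31). Hspb8, the small heat shock protein that works with Bag3, was at 198.2, 262.7, 152.3 and 149.6 CPM against 12.2 to 22.4 CPM (3.59 ± 0.22). The groups did not overlap for any of these 3 genes, which 22.5% of all genes share with Cre above NoCre, and the edgeR adjusted p was at most 8.42e-09 for each. For Hspb1 and Bag3 the 2 Cre wild-type libraries of the first pool lay above the 2 of the second. Cryab, the small heat shock protein also known as alpha B-crystallin and abundant in oligodendrocytes, astrocytes and muscle, was not enriched. It gave 105.7, 109.7, 123.5 and 106.0 CPM in Cre wild-type libraries against 88.7 to 153.6 CPM (median 98.8) in NoCre wild-type libraries (0.02 ± 0.20, edgeR adjusted p = 0.926).

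Among the abundant cytosolic machines, Hsp90aa1 (2.04 ± 0.17), Hspa8 (2.00 ± 0.26) and Hsph1, a large Hsp70 that acts as a nucleotide exchange factor (1.45 ± 0.19), were higher in Cre. So were the mitochondrial pair Hspd1 (1.86 ± 0.16) and Hspe1, the co-chaperonin Hsp10 that caps Hsp60 (1.97 ± 0.26). Hspa1a (1.64) and Dnajb1, a J-domain partner of Hsp70 (1.13), also passed. Hspa4l, another large Hsp70 (0.08, edgeR adjusted p = 0.824), and Hspa1b (0.41, 0.64) did not. Hspa1a and Hspa1b are near-identical copies, with 58.8% of the 50-base windows of the Hspa1a transcript also found in Hspa1b, so reads may be split between them. Their summed counts gave 1.21 (edgeR adjusted p = 0.0306).

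Among the ER members, Syvn1, the ubiquitin ligase of ER-associated degradation, had the largest enrichment (2.31 ± 0.23), with 37.6 to 74.0 CPM in Cre and 8.81 to 13.4 CPM in NoCre wild-type libraries. The disulfide isomerase Pdia3 gave 1.51 ± 0.21, the J-domain partner of Hspa5 Dnajb9 1.50 ± 0.20 and Hspa5 itself 1.38 ± 0.24. Sdf2l1 (1.47), the translocon subunit Sec61b (1.36) and the response's transcription factor Xbp1 (1.29) were also higher. Smaller values that passed were those of Herpud1 (0.91), Calr (0.89), Canx (0.86), Dnajb11 (0.83), Hyou1 (0.70), Pdia4 (0.69), Pdia6 (0.62) and Hsp90b1 (0.57). Dnajc3, an inhibitor of the kinase Eif2ak3, and Creld2, Manf and Edem1 did not pass. Edem1 was at 6.51 to 17.1 CPM in Cre and 4.78 to 26.3 CPM in NoCre wild-type libraries (-0.49, edgeR adjusted p = 0.218).

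These values depend on how libraries with so unequal a share of mitochondrial ribosomal RNA are scaled. With library sizes counted without that RNA and no other scaling, the median over all genes was -0.51 in place of -0.12, and 14.6% of all genes were higher and 35% lower. Then 4 ER members and 8 cytosolic and mitochondrial members were higher in Cre wild-type libraries, and 0 were lower.

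In P278KY mice 28.2% of all genes were higher in Cre than in NoCre libraries and 31.2% lower. Of the ER members 16 were higher and 0 lower (median 1.32, all genes -0.13), and Dnajc3, Creld2 and Edem1 did not pass. Of the cytosolic and mitochondrial members 11 were higher and 1, Cryab, was lower (median 2.65). Hspb1 (3.85 ± 0.32), Hspb8 (3.61 ± 0.21), Bag3 (3.49 ± 0.30) and Hspa1b (3.47 ± 0.73) had the largest values, followed by Hspe1 (3.35 ± 0.26). Cryab was at 28.3, 31.0 and 31.8 CPM in Cre P278KY and at 51.4 to 109.3 CPM (median 99.1) in the 6 NoCre P278KY libraries (-1.61 ± 0.23, edgeR adjusted p = 6.1e-06). All 3 Cre libraries lay below all 6 NoCre libraries, as they did for 27.9% of all genes. With library sizes counted without mitochondrial ribosomal RNA, where 14.1% of all genes were higher and 35.4% lower, 10 ER members and 10 cytosolic and mitochondrial members were higher and Cryab was again lower.

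**Figure D2:**
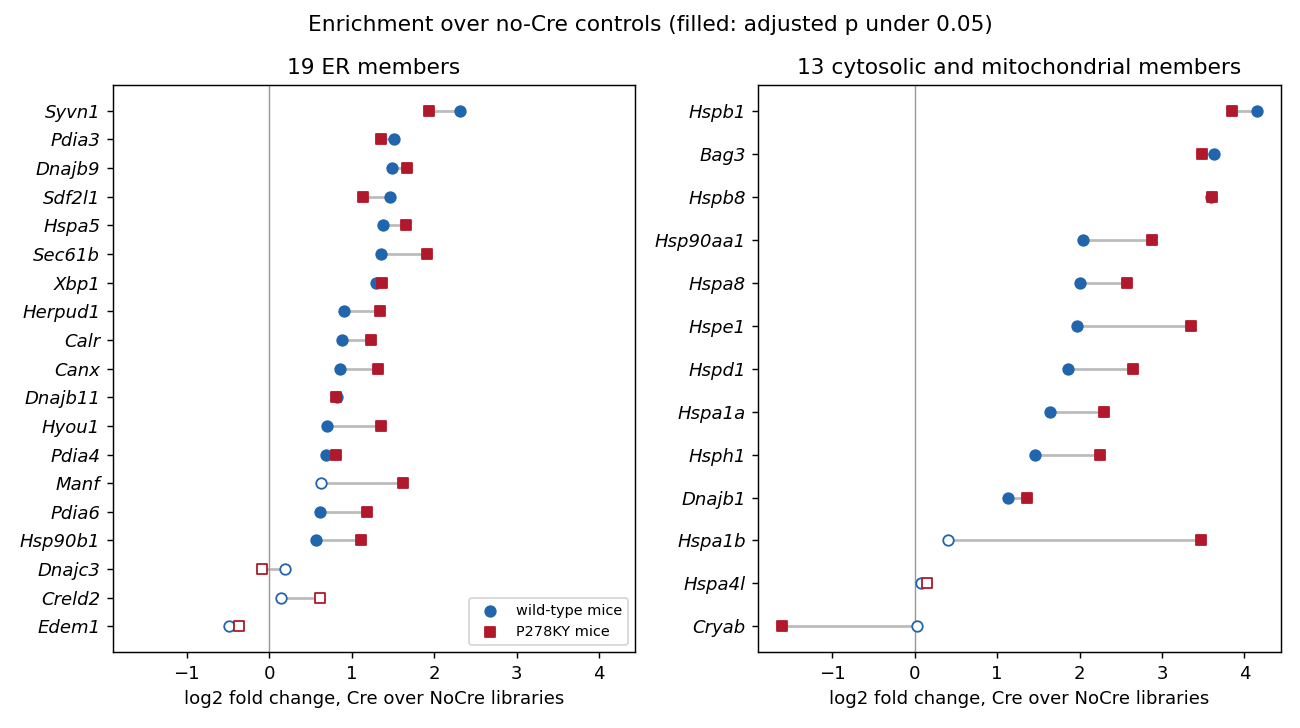
Log2 fold change of Cre over NoCre libraries for each member, in wild-type mice (blue circles) and P278KY mice (red squares), with filled symbols where the edgeR adjusted p was under 0.05. Hspb1, Bag3 and Hspb8 lie between 3.49 and 4.15 in both genotypes, and Cryab lies at 0.02 in wild-type and at -1.61 in P278KY mice.

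The other genes of the same machines were enriched to different degrees. For comparison, 28.5% of all genes were higher in Cre and 31.2% lower in wild-type mice. In P278KY mice these shares were 28.2% and 31.2%. In wild-type mice 13 of 13 tested genes of the TRiC chaperonin and prefoldin, which fold actin and tubulin, were higher in Cre. So were 17 of 18 Hsp90 and Hsp70 co-chaperones, 17 of 23 other heat shock genes (1 lower) and 9 of 14 other mitochondrial chaperones and proteases. Of the ER lists, 15 of 23 degradation genes, 16 of 25 translocation genes, 11 of 29 other folding genes (4 lower) and 4 of 10 sensors and transcription factors of the unfolded protein response (1 lower) were higher. The counts in P278KY mice were 13, 16, 16 (3 lower), 7, 14, 15 (2 lower), 14 (6 lower) and 6 (1 lower) in that order.

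The main comparison of the study set P278KY against wild-type mice among the Cre libraries. Of 14717 genes tested, 1.22% were higher and 1.11% lower in P278KY mice (2.32% in either direction). Among the cytosolic and mitochondrial members 1 was higher (Hspe1) and 1 lower (Cryab), and 11 did not pass. None of the 19 ER members passed with edgeR. DESeq2, which called 6.6% of all genes, called 2 ER members higher (Herpud1 and Manf), and 5 cytosolic and mitochondrial members higher (Hsp90aa1, Hspd1, Hsph1, Hspe1 and Hspa1b) with Cryab lower. At an unadjusted edgeR p under 0.05, 7.36% of all genes were higher and 8.79% lower. By the same measure 5 ER members were higher and 0 lower, and 7 cytosolic and mitochondrial members were higher and 1 lower. The median log2 fold change was 0.29 over the ER members and 0.67 over the others, against -0.01 over all genes.

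**Figure D3:**
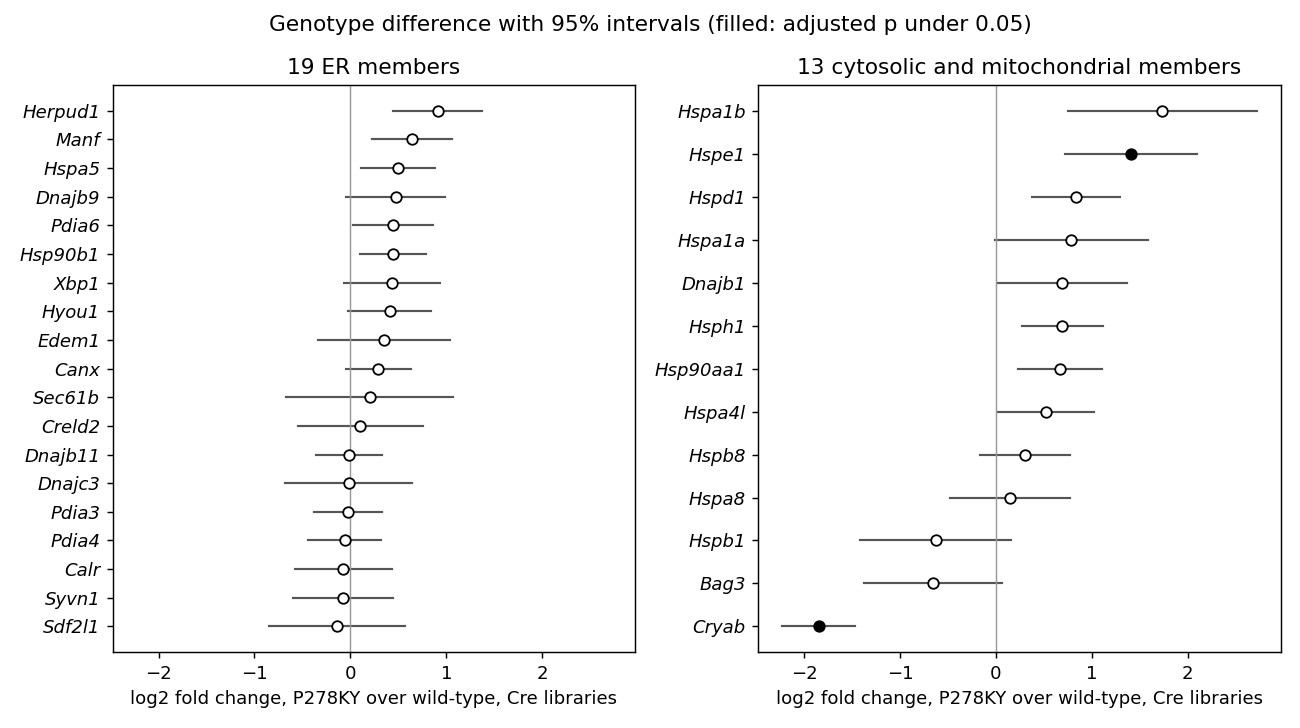
Log2 fold change of P278KY over wild-type mice among the 7 Cre libraries for each member, with 95% intervals, filled where the edgeR adjusted p was under 0.05. Hspe1 at 1.41 and Cryab at -1.85 are filled. The ER members run from -0.14 for Sdf2l1 to 0.91 for Herpud1.

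Cryab fell in P278KY mice. It was at 28.3, 31.0 and 31.8 CPM in Cre P278KY replicates 1 to 3 and at 105.7, 109.7, 123.5 and 106.0 CPM in Cre wild-type replicates 1 to 4. The highest P278KY library was thus far below the lowest wild-type library, and the values of the 2 pools were alike. The group means were 30.4 ± 1.86 (SD, n = 3) and 111.2 ± 8.35 (SD, n = 4), and the log2 fold change was -1.85 ± 0.17 SE (edgeR adjusted p = 0.000517). Cryab lies on chromosome 9 at 50751325 to 50756636 (+) in GENCODE M21 (GRCm38). Within the first pool the value was -1.75 (edgeR adjusted p = 0.000182). It passed under each of the 16 alternatives computed for this comparison, with an edgeR or DESeq2 adjusted p of at most 0.0229.

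Summed markers of other cells, among them those in which Cryab is abundant, were set beside it. The summed level of 10 oligodendrocyte markers was 719, 847 and 1805 CPM in Cre P278KY, 764.3 and 1215 CPM in the first-pool Cre wild-type libraries and 3859 and 4276 CPM in those of the second pool. In the first pool those sums overlapped between genotypes. None of the 10 oligodendrocyte or 10 astrocyte markers passed between the genotypes with edgeR. At an unadjusted p under 0.05, 6 oligodendrocyte and 2 astrocyte markers were lower and 0 higher, against 8.79% and 7.36% of all genes. DESeq2, which called 6.6% of all genes in either direction, called 2 and 1 lower. The summed level of 10 astrocyte markers was 836.2 to 1341 CPM in Cre P278KY and 1071 to 1841 CPM in Cre wild-type libraries. The summed level of 10 skeletal muscle markers was 17.5 to 34.1 CPM in Cre P278KY and 37.3 to 151.6 CPM in Cre wild-type, with 0 markers passing in edgeR and 7 lower in DESeq2. For 10 Schwann cell and meningeal markers the sums were 200.9 to 264.5 and 395.7 to 1173 CPM, and 2 passed as lower, as did 1.11% of all genes. DESeq2 called 4 of these lower. At an unadjusted edgeR p under 0.05, 8 muscle and 8 Schwann cell and meningeal markers were lower and 0 higher. Within the first pool the median log2 fold change was -0.07 for oligodendrocyte and 0.52 for astrocyte markers. It was -3.07 for muscle and -0.69 for Schwann cell and meningeal markers. With edgeR, 0 oligodendrocyte, 1 astrocyte, 2 muscle and 3 Schwann cell and meningeal markers passed there as lower and 0 as higher. Of all genes 9.1% passed in the first pool. No marker of these 4 lists was at 0 in all 3 Cre P278KY libraries. The part of RNA from any of these cells in the Cryab result was not tested.

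Hspe1 rose in P278KY mice. It stood at 225.6, 218.9 and 274.1 CPM in Cre P278KY and at 133.2, 125.9, 54.8 and 57.3 CPM in Cre wild-type libraries. All P278KY libraries were above all wild-type ones, and the 2 wild-type libraries of the second pool were the lowest. The means were 239.5 ± 30.1 CPM (SD, n = 3) in P278KY and 92.8 ± 42.6 CPM (SD, n = 4) in wild-type mice, with a log2 fold change of 1.41 ± 0.31 SE (edgeR adjusted p = 0.0479). Within the first pool the value was 0.95 (edgeR adjusted p = 0.0135). The adjusted p was 0.0516 to 0.201 without any one library other than Cre wild-type replicate 1, without which it was 0.0367, so 6 of the 7 libraries each decide the call. The call was also lost with RLE factors, another way of scaling the libraries.

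Hspd1, the partner of Hspe1, did not pass. It gave 818.0, 670.6 and 836.2 CPM in Cre P278KY and 589.6, 458.6, 370.3 and 359.3 CPM in Cre wild-type libraries (0.83 ± 0.21, edgeR adjusted p = 0.0734). The P278KY libraries lay above the wild-type ones, and the 2 wild-type libraries of the second pool were again the lowest. In GENCODE M21 (GRCm38) Hspd1 spans 55077835 to 55088243 on the minus strand of chromosome 1 and Hspe1 55088132 to 55091307 on the plus strand, so the gene models overlap at their 5′ ends. Whether counts used strand is not given in the sources used here.

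Other mitochondrial chaperones, from a list of 14 genes chosen by function, included 2 that rose and 0 that fell, against 1.22% and 1.11% of all genes. Hspa9, the mitochondrial Hsp70, was at 520.7 ± 34.9 CPM (SD, n = 3) with the Gars change and at 242.6 ± 60.9 CPM (SD, n = 4) without it (1.13 ± 0.20 SE, edgeR adjusted p = 0.018). Lonp1, the matrix protease that degrades misfolded proteins, was at 72.1 ± 7.29 and 29.4 ± 6.63 CPM (1.33 ± 0.20 SE, edgeR adjusted p = 0.00734). Neither overlapped between genotypes, with P278KY above, as for 8.2% of all genes. Both passed within the first pool as well (0.90 and 1.11), where 9.1% of all genes passed. The median of the 14 genes was -0.09, and 10 of the 14 were below 0.

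The inducible and constitutive cytosolic Hsp70 and Hsp90 genes did not pass with edgeR. Hsp90aa1 was at 4268, 3871 and 4296 CPM in Cre P278KY and at 3464, 2687, 2169 and 2291 CPM in Cre wild-type libraries (0.67 ± 0.20, edgeR adjusted p = 0.12). Hsph1 was at 1053, 980.9 and 939.9 CPM against 798.3, 654.8, 567.0 and 491.0 CPM (0.69 ± 0.19, 0.101). For both genes the P278KY libraries lay above all wild-type ones, with the first-pool wild-type libraries next to them. Hspa1b was at 16.01, 8.20 and 6.38 CPM against 5.42, 3.30, 1.80 and 2.24 CPM (1.73 ± 0.44, edgeR adjusted p = 0.0791), and the summed Hspa1a and Hspa1b counts gave 1.09 (0.17). Hspa8 overlapped, at 5846, 4506 and 3173 CPM against 3279, 6467, 3699 and 3371 CPM (0.15, edgeR adjusted p = 0.85). Dnaja1, a J-domain partner of Hsp70 from the list of other heat shock genes, did pass, at 1246 ± 71.0 against 701.1 ± 154.4 CPM (0.86 ± 0.19 SE, edgeR adjusted p = 0.0491), and it was the only one of 24 tested. Within the first pool it did not (0.66, edgeR adjusted p = 0.0538).

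The values of Bag3 and Hspb1 differed between the sequencing pools. Bag3 was at 234.9, 198.4 and 212.8 CPM in Cre P278KY, at 452.1 and 532.8 CPM in the first-pool Cre wild-type libraries, and at 195.4 and 223.2 CPM in those of the second pool. Hspb1 was at 148.3, 116.6 and 119.7 CPM, at 279.7 and 305.9 CPM, and at 101.0 and 133.9 CPM in the same order. For both genes the P278KY libraries were below the first-pool wild-type libraries and overlapped those of the second. Over all 7 libraries neither passed (Bag3 -0.66, edgeR adjusted p = 0.359, and Hspb1 -0.63, 0.426). Within the first pool, where 9.1% of all genes passed, both were lower in P278KY mice (-1.12, edgeR adjusted p = 0.00495, and -1.11, 0.00634). With pool as a term, which called 11.4% of all genes, both again passed as lower (-1.115 and -1.114). That fit holds no second-pool P278KY library, so its genotype difference rests on the same first-pool libraries and is not a further test. With the number in the mouse name as a block, which called 11.3%, the sign turned and neither passed (Bag3 0.07, edgeR adjusted p = 0.853, and Hspb1 0.16, 0.681). Among the Cre libraries a number is shared only by Cre P278KY replicates 1 and 3 and Cre wild-type replicates 3 and 4. That block thus set first-pool P278KY libraries against second-pool wild-type libraries, so pool and genotype cannot be told apart in it. No Cre P278KY library was in the second pool, so no value within it could be had. The 2 first-pool wild-type mice were male, the 2 of the second pool were female, and 2 of the 3 P278KY mice were female. Pool and sex thus cannot be told apart among the Cre wild-type values.

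The summed markers of the tagged cells were likewise highest in the first-pool Cre wild-type libraries. The summed level of the 10 cholinergic markers was 2215, 2057 and 1734 CPM in Cre P278KY, 3499 and 3161 CPM in the first-pool Cre wild-type libraries, and 2175 and 1999 CPM in those of the second pool. In the first pool 3 of the 10 markers were lower in P278KY mice and 0 higher, with a median of -0.42 on the log2 scale. These were Chodl (-2.95, edgeR adjusted p = 7.25e-06), Calca (-2.36, 0.00255) and Slc10a4 (-1.02, 0.00703), named after their values were seen. Chat, the enzyme that makes acetylcholine, gave -0.52 (0.12). Over all 7 libraries only Chodl passed (-2.53, edgeR adjusted p = 0.0032), and the median of the 10 was -0.11. No cholinergic marker was at 0 in all 3 Cre P278KY libraries. Their part in the Bag3 and Hspb1 values was not tested.

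**Figure D4:**
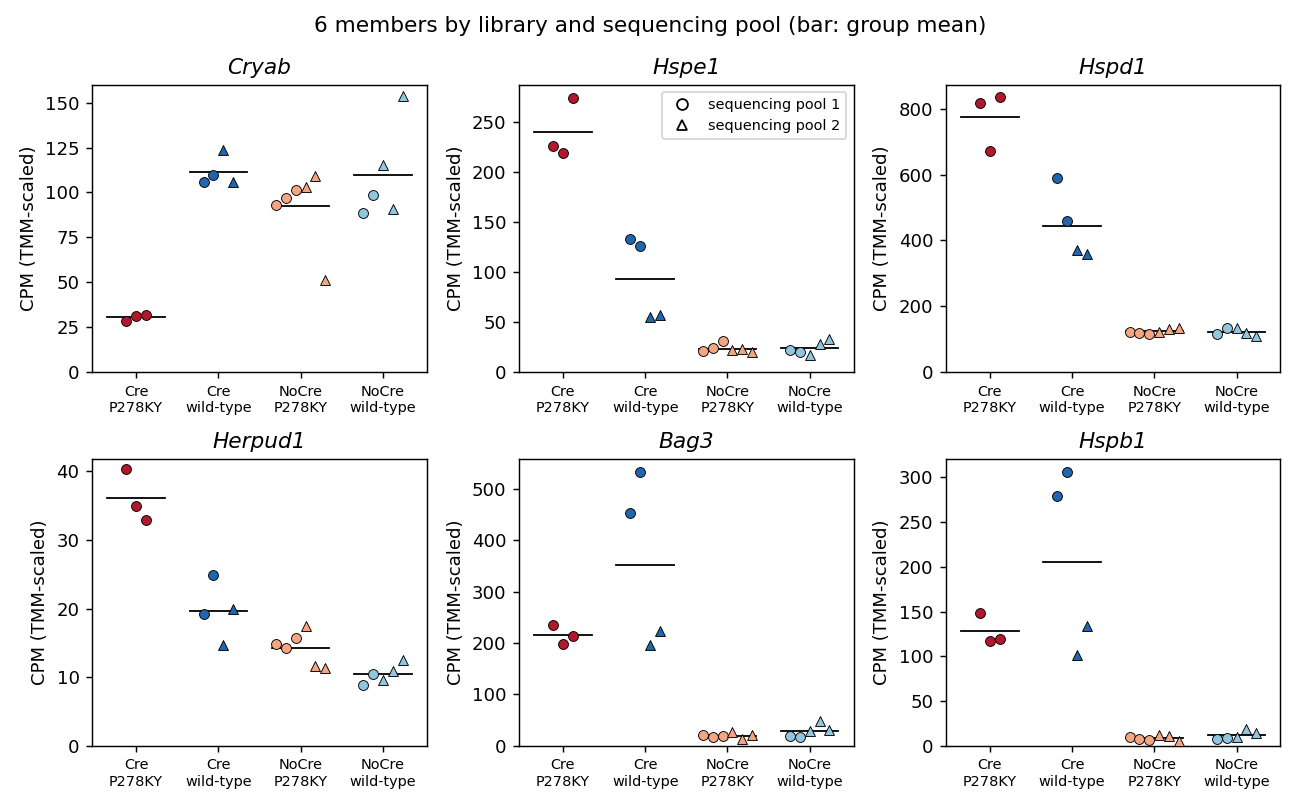
TMM-scaled CPM of 6 members in each library, by group, with circles for the first and triangles for the second sequencing pool and bars for group means. The Cre wild-type libraries of Hspe1, Bag3 and Hspb1 split by pool, while those of Cryab lie together between 105.7 and 123.5 CPM.

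The ER members gave smaller values. Herpud1, an ER membrane protein of the degradation machinery, was at 40.3, 35.01 and 32.9 CPM in Cre P278KY and at 19.2, 25.0, 14.7 and 19.9 CPM in Cre wild-type libraries. The groups did not overlap, and the means were 36.1 ± 3.78 (SD, n = 3) and 19.7 ± 4.20 (SD, n = 4). The log2 fold change of 0.91 ± 0.21 SE missed the threshold (edgeR adjusted p = 0.0536), while within the first pool it passed (0.79, 0.0449). Without Cre wild-type replicate 2 it also passed, as the only ER member to do so. In the same comparison Atf4 rose by 1.84 on the log2 scale (edgeR adjusted p = 0.0105) and Ddit3 by 2.63 (0.000472), and whether these values bear on that of Herpud1 was not tested.

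The lumenal chaperones did not pass either. Hspa5 was at 311.1, 271.7 and 247.3 CPM in Cre P278KY and at 183.6, 226.2, 214.0 and 178.5 CPM in Cre wild-type libraries, without overlap. Its log2 fold change was 0.50 with a 95% interval of 0.12 to 0.88 (edgeR adjusted p = 0.192). Hsp90b1 was at 513.6, 458.7 and 496.1 CPM against 355.4, 412.1, 364.8 and 337.6 CPM (0.44, 0.10 to 0.79, 0.198). Manf, a small secreted factor held in the ER by Hspa5, was at 23.4, 20.5 and 24.6 CPM against 15.5, 16.3, 12.5 and 15.0 CPM (0.65, 0.23 to 1.06, 0.117). With Herpud1, Pdia6 and Canx these make 6 of 19 ER members whose P278KY libraries all lay above the wild-type ones, and 0 lay all below. Over all genes 8.2% lay above in this way and 8.45% below. Among the cytosolic and mitochondrial members 5 of 13 lay above and 1 below.

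The remaining ER members showed no common direction. Pdia6 gave 0.44, Dnajb9 0.47, Xbp1 0.43, Hyou1, a large Hsp70 that resets Hspa5, 0.41, Edem1 0.35 and Canx 0.29, with edgeR adjusted p from 0.283 to 0.64. Pdia3 (-0.02, 95% interval -0.38 to 0.33), Dnajb11 (-0.01, -0.36 to 0.33) and Pdia4 (-0.06, -0.44 to 0.32) had the narrowest intervals around values near 0. Calr (-0.08), Syvn1 (-0.08), Dnajc3 (-0.02), Creld2 (0.10) and Sdf2l1 (-0.14, -0.85 to 0.57) had wider ones, and the intervals of these 8 genes all exclude a 2-fold change in either direction. That of Sec61b (0.20, -0.67 to 1.07) does not exclude a 2-fold rise. Of the 8 genes with the ER stress response element shown above, 3 (Hspa5, Hsp90b1 and Pdia6) had an unadjusted edgeR p under 0.05, all higher. The other 5 (Calr, Canx, Creld2, Dnajc3 and Syvn1) did not. By the same measure 5 of all 19 ER members and 7.36% of all genes were higher. Whether the element bears on these values was not tested.

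The other ER lists gave few calls, as did all genes, of which 2.32% passed with edgeR and 6.6% with DESeq2. At an unadjusted edgeR p under 0.05, 7.36% of all genes were higher and 8.79% lower. Ero1l, the oxidase that recharges the disulfide isomerases, was the only one of 29 other folding genes that passed. It rose to 123.7 ± 18.5 CPM (SD, n = 3) from 43.3 ± 13.9 (SD, n = 4), a log2 fold change of 1.53 ± 0.30 SE (edgeR adjusted p = 0.028). Its groups did not overlap, with P278KY above, as for 8.2% of all genes. None of 23 degradation genes, 25 translocation genes or 10 sensors and transcription factors passed with edgeR, with 2, 1 and 2 higher and 1, 2 and 0 lower at an unadjusted p under 0.05. DESeq2 called 1, 0 and 0 of them. Atf6, a sensor of the unfolded protein response, gave 0.70 (edgeR adjusted p = 0.163, and 0.96 with 0.0239 within the first pool). None of the 18 co-chaperones or 13 genes of TRiC and prefoldin passed with edgeR or DESeq2, with 1 and 1 higher and 1 and 0 lower at an unadjusted p under 0.05.

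The same genotypes were compared among the NoCre libraries, to show what the background RNA does. There edgeR called 4 of 17133 genes, 0.0233%, and DESeq2 0.163%, and none of the 32 members passed with either. At an unadjusted p under 0.05, 2.53% of all genes were higher and 4.26% lower, and 1 ER member was higher (Herpud1, 0.44) and 1 lower (Calr, -0.46), and 1 cytosolic member was lower (Bag3, -0.57). The medians were -0.02 over the ER members and -0.13 over the others. Cryab was at 51.4 to 109.3 CPM (median 99.1) in NoCre P278KY and 88.7 to 153.6 CPM (median 98.8) in NoCre wild-type libraries (-0.24 ± 0.18, edgeR adjusted p = 0.776). Hspe1 was at 19.7 to 30.8 CPM (median 22.4) and 16.7 to 32.6 CPM (median 21.6) (-0.01, 0.995). Of the 10 cholinergic markers, 2 passed as lower with edgeR, Chat among them (-1.45, edgeR adjusted p = 0.0339), and 0 as higher. Their summed level was 96.4 to 113.2 CPM in NoCre P278KY and 142.8 to 164.1 CPM in NoCre wild-type libraries. Whether this bears on the enrichment in P278KY mice or on the interaction was not tested.

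The interaction tested whether the genotype difference itself differed between Cre and NoCre libraries. It passed for 0.654% of all genes and for 1 member, and with DESeq2 for 2.23% of all genes and 3 members (Hspe1, Hspd1 and Cryab). In the first pool it passed for 2.36% of all genes and 3 members (Bag3, Hspb1 and Cryab, all with values below 0). Cryab gave -1.63 ± 0.30 SE (edgeR adjusted p = 0.00824), and the call was lost without Cre P278KY replicate 1 (0.051), when libraries were scaled by their size alone (0.251) and by their size without mitochondrial ribosomal RNA (0.261). Hspe1 gave 1.38 ± 0.36 (edgeR adjusted p = 0.0882), Hspd1 0.79 (0.142), Hsp90aa1 0.84 (0.142) and Hsph1 0.79 (0.217). Of the ER members none passed with edgeR or DESeq2, and Hsp90b1 (0.54), Manf (1.00) and Hyou1 (0.66) had an unadjusted p under 0.05, as had 4.73% of all genes with a higher value. Hspa9 passed (1.21, edgeR adjusted p = 0.0252). This comparison, the genotype difference and the enrichment in P278KY mice share the 3 Cre P278KY libraries, so they are not independent of each other.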

How the data were processed

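Ribosome-associated mRNA of 18 spinal cords was measured, and groups follow the genotypes in the labels. Replicate numbers only name mice. Each library has a table of genes in which the authors deposited expected counts and TPM, the units per the file headers. The submitters' processing notes name Bowtie2 2.2.0 and RSEM 1.2.12. The genome build and gene annotation: not given in the sources used here. The deposited expected counts were rounded to whole numbers. The deposited TPM values served only to order genes. Sequencing pools were inferred from index and sample numbers in the labels (submitted samples 1 to 10, and 11 to 18).

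The 5 comparisons used edgeR 4.0.16 (R 4.3.3) and its two-sided quasi-likelihood test with TMM factors, filterByExpr and robust dispersions, with Benjamini-Hochberg adjustment over all genes tested and a threshold of 0.05. The Cre genotype difference used the 7 Cre libraries, and the others used all 18 with 4 group means. CPM values use the 18-library TMM factors, so ratios of printed CPM differ slightly from fitted fold changes. ± SE is the standard error of a log2 fold change. The procedure was tested on simulated data.

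Alternatives were DESeq2 1.42.0, other scalings, no low-count filter, the first pool alone, mouse-name numbers as a block, each replicate left out and, chosen after seeing the data, pool as a term. The members, named genes and lists were chosen with earlier results of these data known: all members are named, and up to 4 genes of each other list with the smallest adjusted p in the Cre genotype difference could be. Hspa14, a name held by 2 gene identifiers, was left out of the other heat shock genes. Counting error alone does not include variation from PCR.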

Additional observations from a re-analysis of the deposited data

Results flagged for a closer look

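In 96 groups of 4 to 6 libraries, one for each member and group, 5 held a single library whose distance from the nearest other library took up more of the group's range than Dixon's 95% critical value allows. Chance alone flags about 1 group in 20.

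Hspa8, the constitutive Hsp70, was at 6470 CPM in Cre wild-type replicate 2 and at 3280 to 3700 CPM in the other Cre wild-type libraries. Hsp90b1, the ER Hsp90, was at 195 CPM in NoCre wild-type replicate 1 and 250 to 266 CPM in the others. Hspa1b was at 8.97 CPM in NoCre wild-type replicate 4, where protein-coding genes held 23.0% of the counts, and at 0.0873 to 2.13 CPM in the others. NoCre P278KY replicate 6 had the lowest Cryab level (51.4 CPM, others 93.2 to 109) and the highest Hspa4l level (559 CPM, others 239 to 321) of its group. In that library protein-coding genes held 37.5% of the counts, the lowest share among the 6 NoCre P278KY libraries.

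The genotype difference of Cryab was tested to differ between Cre and NoCre libraries (interaction -1.63 on the log2 scale, edgeR adjusted p = 0.00824). Cryab was 111.2 ± 8.35 CPM (SD, n = 4) in Cre wild-type and 30.4 ± 1.86 (SD, n = 3) in Cre P278KY libraries, but 109.4 ± 26.8 (SD, n = 5) and 92.5 ± 20.9 (SD, n = 6) in the NoCre libraries of the same genotypes.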

How the results depend on the processing

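No value that passed as reported changed sign under any alternative computed, and no member passed in opposite directions under different settings. In the Cre genotype difference 13 of 32 members took both signs over the settings, and none of these passed as reported. Bag3 and Hspb1 were among them. They passed as lower in the first pool and were above 0 with the replicate block (0.07 and 0.16). In the Cre genotype difference 0 ER members were called, against 1 without the low-count filter, 1 in the first pool, 1 with pool as a term and 2 with DESeq2 (0 to 1 with each replicate left out). Of the cytosolic and mitochondrial members 2 were called, against 1 with RLE factors, 4 in the first pool, 5 with pool as a term and 6 with DESeq2 (1 to 4 with each replicate left out). Of all genes 2.32% were called, against 2.29% with RLE factors, 1.82% without the filter, 9.1% in the first pool, 11.4% with pool as a term and 6.6% with DESeq2. Library size without mitochondrial ribosomal RNA called 4 ER members in the enrichment in wild-type and 10 in P278KY mice. In the interaction 1 cytosolic member was called, against 0 with either library-size scaling, 3 with DESeq2, 3 in the first pool, and 0 to 4 with each replicate left out. The cause of these differences was not tested.

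The number in the mouse name is shared by some mice of different groups. Same-numbered libraries of different groups deviated together in 3 of 12 pairs (r over 0.1). Of these pairs 11 lay in different sequencing pools, so whether the numbers pair the samples cannot be judged from this. The reported tests did not pair the samples. With that number as a replicate block, 3 ER and 6 cytosolic and mitochondrial members were called in the Cre genotype difference and 2 cytosolic members in the interaction. The block called 11.3% of all genes in the former and 0.87% in the latter. In the former it set first-pool P278KY libraries against second-pool wild-type libraries. With 3 and 4 Cre libraries, the 95% interval of an ER member's log2 fold change was as wide as -0.67 to 1.07 (Sec61b).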
